A study of Mus musculus with 4 samples.

Results

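The 9 CXC chemokine genes Cxcl1, Cxcl2, Cxcl3, Cxcl5, Cxcl9, Cxcl10, Cxcl11, Cxcl12 and Cxcl16 were followed in 4T1, an established mouse mammary carcinoma line, out of 24411 genes listed in each library. They were taken by gene symbol, and all 9 symbols were found. The series holds 2 control libraries and 2 libraries labelled CD95ko, made to ask which transcripts differ after disruption of CD95, the Fas ligand receptor encoded by Fas. The protocols describe an untransduced line and a line carrying Cas9 with blasticidin selection as the RNA sources of the controls, and the titles do not say which control is which. The libraries labelled CD95ko come from single-cell clones of the Cas9 line that received a pair of guide RNAs against exon 9 of Fas, so each is 1 clone, and they share Cas9 and blasticidin selection. All cells grew in the same serum-containing medium with no further treatment stated. Nothing states that libraries of a group are repeat cultures of 1 line, and p-values measure only the spread between these libraries.

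CXC chemokines are small secreted proteins that steer leukocytes through G protein-coupled receptors. CXCL1, CXCL2, CXCL3 and CXCL5 carry an ELR motif, bind CXCR2 and attract neutrophils, and their genes are classic targets of NF-κB. CXCL9, CXCL10 and CXCL11 lack that motif, are induced by interferons, and attract activated T cells and NK cells through CXCR3. CXCL12 is the stromal ligand of CXCR4, and CXCL16 is made as a membrane-anchored protein that the proteases ADAM10 and ADAM17 can release as a ligand of CXCR6.

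The promoters of Cxcl1, Cxcl2, Cxcl3 and Cxcl10 are shown because they carry the letters of NF-κB or interferon elements, and genes of both pathways are among those measured here. The windows are the RefSeq sequence of C57BL/6J (GRCm38.p6), from the 5′ side up to the base before the annotated start, and 6 of the 9 members had an entry in that table. Capitals mark matches to the κB consensus on either strand and, in Cxcl10, also the core GAAANNGAAA of the interferon-stimulated response element. They lie at chr5:90891115-90891244 (forward strand) for Cxcl1, chr5:90903769-90903898 (forward) for Cxcl2, chr5:90785971-90786100 (forward) for Cxcl3 and chr5:92348890-92349139 (reverse) for Cxcl10.
Cxcl1: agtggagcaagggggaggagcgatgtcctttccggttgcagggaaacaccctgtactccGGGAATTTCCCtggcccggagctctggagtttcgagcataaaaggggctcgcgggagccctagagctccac
Cxcl2: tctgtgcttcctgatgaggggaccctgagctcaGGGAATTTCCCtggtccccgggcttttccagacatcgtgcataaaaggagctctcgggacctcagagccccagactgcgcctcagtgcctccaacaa
Cxcl3: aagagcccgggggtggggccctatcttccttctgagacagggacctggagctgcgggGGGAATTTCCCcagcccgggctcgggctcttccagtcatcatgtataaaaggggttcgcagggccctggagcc
Cxcl10: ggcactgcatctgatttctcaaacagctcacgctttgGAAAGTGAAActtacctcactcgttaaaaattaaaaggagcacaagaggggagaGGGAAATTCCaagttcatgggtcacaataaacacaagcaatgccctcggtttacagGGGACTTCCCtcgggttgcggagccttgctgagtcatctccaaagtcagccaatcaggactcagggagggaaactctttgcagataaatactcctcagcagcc

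The stretch GGGAATTTCCC was the longest run of letters common to the 250 bases before the starts of Cxcl1, Cxcl2 and Cxcl3. It began 71 bases before the RefSeq start in Cxcl1, 97 in Cxcl2 and 73 in Cxcl3, and it holds a pair of overlapping κB matches, 1 on each strand. The distance in Cxcl2 depends on the annotation: RefSeq starts the gene at chr5:90903899 and GENCODE M21 further upstream, at chr5:90903871. Of 32817 RefSeq promoter windows of 250 bases, 14 (0.0427%) held that stretch on either strand, while 3.9% held any κB match and 2.97% the interferon element core. Cxcl10 had κB matches beginning 159 and 103 bases before its start and the interferon element core beginning 213 bases before it. Neither of these motifs matched in the windows of Cxcl9 and Cxcl12. The gamma-activated site core TTCNNNGAA (held by 7.01% of windows) matched in none of the 6 member windows, that of Cxcl10 included. A match describes letters of the reference strain and is not evidence of binding in 4T1 cells.

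Only 3 of the 9 genes carried most of the CXC message in these cells. Cxcl1, Cxcl5 and Cxcl16 together made up 85.7% and 98.3% of the summed TPM of the 9 genes in controls 1 and 2, 97.1% for the library labelled CD95ko 1 and 100% for the library labelled CD95ko 2. TPM, a share of transcripts corrected for length, allows levels of different genes to be set side by side. The summed TPM was 1982 and 3233 in the controls against 1161 and 842 in the CD95ko-labelled libraries, so the groups did not overlap. The number of members above 0 was 8, 6, 5 and 3 in the same order.

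Cxcl12 was the single member listed at 0 in all 4 libraries. Cxcl9 was listed at 0.41 TPM in control 1 and at 0 in the other libraries. Cxcl2 was listed at 7.31 TPM in control 1 and at 0 in the other libraries. These 3 genes did not reach the filter of at least 1 TPM in at least 2 libraries and were not tested, and the depth behind a 0 is unknown. None of 47 proteasome, polymerase, chaperonin, translation and splicing genes checked was at 0 in any library. In bulk RNA, a smaller number of expressing cells and less RNA per cell cannot be told apart.

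**Figure D1:**
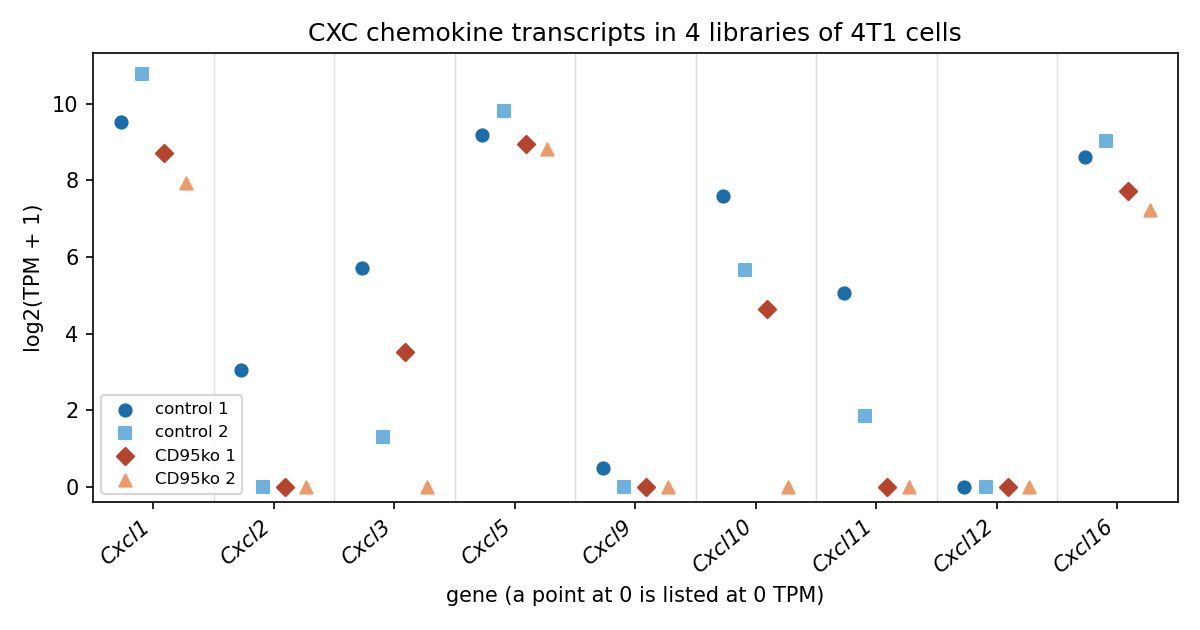
Level of each CXC chemokine, as log2(TPM + 1) on the vertical axis, in the libraries control 1, control 2, CD95ko 1 and CD95ko 2; each point is 1 library. Cxcl1, Cxcl5 and Cxcl16 lie high in every library, Cxcl10 and Cxcl11 are highest in control 1, and Cxcl12 lies at 0 throughout.

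As a check of the labels, Fas was listed at 49.4 TPM (control 1), 39.2 TPM (control 2), 15.8 TPM (CD95ko 1) and 49.5 TPM (CD95ko 2). The library labelled CD95ko 2 was thus not lower than the controls, and the groups overlapped (log2 fold change -0.63 ± 0.54 SE, limma adjusted p = 0.615). A TPM per gene cannot show the loss of 1 exon. Directions are therefore stated by label. Genes above 0 numbered 11193 to 12010 per library, and tested genes had a median TPM of 16.3 in control 2 and of 21.3 to 22.9 elsewhere. All 6 epithelial markers (Epcam, Krt8, Krt18, Krt19, Cdh1, Cldn4) were present, with a summed TPM of 3853 to 4140 in the controls and 6418 to 9937 in the CD95ko-labelled libraries. Of 6 leukocyte markers, Ptprc, Cd3e, Itgam, Adgre1 and S100a9 were at 0 in all libraries. The remaining marker, Csf1r, gave the whole of that list's sum, 1.22 and 0 TPM in the controls, against 22.2 and 5.07 TPM in the CD95ko-labelled libraries. Of 6 fibroblast markers 3 were at 0 in all libraries and the sum ranged from 0.97 to 4.52 TPM (the controls 0.97 to 3.02, the other group 2.85 to 4.52), and of 4 endothelial markers 3 were at 0 and the sum reached 0.28 TPM in control 2. The part of these cell type markers in the differences of the chemokines was not tested.

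Across the whole table, 6 of 11167 genes (0.0537%) passed an adjusted p of 0.05 in limma, and 0 of the 6 tested chemokines did. At an unadjusted p under 0.05, 4 of the 6 (Cxcl1, Cxcl10, Cxcl11 and Cxcl16) were lower in the CD95ko-labelled libraries, against 5.68% of all genes tested, and 0 were higher, against 9.25%. Of all genes tested at this level, 62.0% were higher, which became 51.9% under quantile normalization. For 5 of the 6, all but Cxcl3, both values labelled CD95ko lay below both controls, against 18.3% of all genes tested. Cxcl11 passed the filter through the controls alone and so had to lie lower, and these counts are given as a description. The median log2 fold change of the 6 was -1.78, beside 0.13 over all genes tested. The smallest two-sided p that an exact permutation of 2 against 2 libraries can reach is 0.333.

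Of the neutrophil attractants, Cxcl1 and Cxcl5 were abundant and Cxcl2 and Cxcl3 were low. Cxcl1, the mouse counterpart of the human GRO chemokines, was listed at 730 and 1767 TPM in the controls, against 420.0 and 244 TPM in the CD95ko-labelled libraries. The groups did not overlap, although the controls lay further apart than the clones. The mean was 1249 ± 733 TPM for the controls and 332 ± 124 TPM for the CD95ko-labelled libraries (SD, n = 2 each), 3.76-fold lower. The log2 fold change was -1.82 ± 0.44 SE (limma adjusted p = 0.147). Cxcl1 ranked 192nd and 99th by TPM among all listed genes in the controls, and 315th and 601st in the CD95ko-labelled libraries.

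Cxcl5, which in the mouse also signals through CXCR2, was listed at 581 and 894 TPM in the controls, against 496 and 449 TPM in the CD95ko-labelled libraries. The groups did not overlap, but the gap between them was smaller than the gap between the controls. Its mean was 737 ± 221 TPM against 472 ± 32.8 TPM (SD, n = 2 each), 1.56-fold lower, with a log2 fold change of -0.61 ± 0.31 SE (limma adjusted p = 0.39). Within each library, where scaling cancels, the ratio of Cxcl1 to Cxcl5 TPM was 1.26 and 1.98 in the controls and 0.847 and 0.544 in the CD95ko-labelled libraries. Cxcl1 was thus the more abundant of the pair in both controls and Cxcl5 in both clones.

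Cxcl3, a close relative of Cxcl2, showed no such order. Control 1 held 51.1 TPM and control 2 held 1.44 TPM, with 10.4 TPM for the library labelled CD95ko 1 and 0 listed for the library labelled CD95ko 2. The groups overlapped, and control 2 minus control 1 was -4.42 on the log2(TPM + 1) scale, larger in size than the fitted difference between groups (log2 fold change -1.74 ± 1.46 SE, limma adjusted p = 0.606). Its direction turned when control 1 was left out (0.47) or the library labelled CD95ko 2 was left out (0.02). The authors' counting could split reads between Cxcl2 and Cxcl3, since 8.72% of the 25-nucleotide stretches of Cxcl2 transcripts in GENCODE M21 also occur in Cxcl3. For Cxcl1 no such stretch was shared with another member, and 0.52% were shared with any other gene. The 3 genes that share the κB stretch printed above had different levels: Cxcl1 stood at 244 TPM or more in every library, and Cxcl2 at 7.31 TPM or less.

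**Figure D2:**
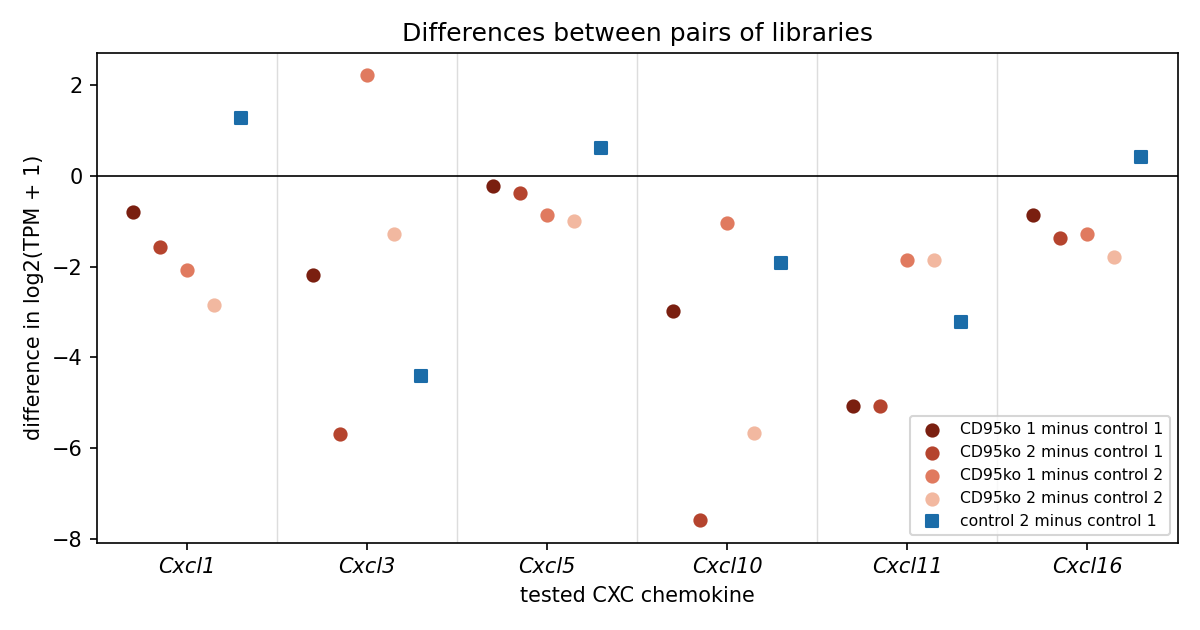
Difference in log2(TPM + 1) for each tested chemokine in the 4 pairs of a library labelled CD95ko and a control (circles) and between the controls (squares); the line at 0 marks no difference. All 4 pairs lie below 0 for Cxcl1, Cxcl5, Cxcl10, Cxcl11 and Cxcl16, while for Cxcl3 1 pair lies at 2.22.

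The lymphocyte attractants induced by interferon were all highest in control 1. Cxcl10, a ligand of CXCR3, was listed at 193 TPM there and 49.9 TPM in control 2, while the library labelled CD95ko 1 held 23.8 TPM and the library labelled CD95ko 2 was listed at 0. Both clones lay below both controls, and the spread within each group was wide. The log2 fold change was -4.32 ± 1.27 SE (limma adjusted p = 0.187), a value that depends on how the 0 is treated and became -5.99 with a pseudocount of 0.1. With control 1 left out it was -3.35 and with the library labelled CD95ko 2 left out it was -2.00.

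Cxcl11, another CXCR3 ligand, was listed at 32.5 TPM in control 1, 2.61 TPM in control 2 and 0 in both libraries labelled CD95ko (limma adjusted p = 0.182). RefSeq annotates the C57BL/6J copy as a transcribed pseudogene and GENCODE M21 as a polymorphic pseudogene, and 4T1 comes from another mouse strain. Cxcl9, the third ligand of that receptor, gave 0.41 TPM at most. Among these 3 genes the order within control 1 and control 2 was Cxcl10 above Cxcl11 above Cxcl9. Cxcl10 was more than 2-fold lower in all 4 pairs on the log2(TPM + 1) scale, as were 1.96% of all genes tested. Cxcl11 was too, but it passed the filter through the controls alone and could only lie lower. The difference between the controls (control 2 minus control 1) was itself -1.93 for Cxcl10 and -3.21 for Cxcl11.

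Cxcl16, the membrane-anchored member, was listed at 387 and 518 TPM in the controls, against 212 and 149 TPM in the CD95ko-labelled libraries. The groups did not overlap, and the gap between them was wider than the gap within either group. The mean was 453 ± 92.8 TPM against 180.3 ± 44.2 TPM (SD, n = 2 each), 2.51-fold lower, with a log2 fold change of -1.33 ± 0.32 SE (limma adjusted p = 0.147). The ratio of Cxcl16 to Cxcl5 TPM within a library was 0.667 and 0.58 in the controls and 0.427 and 0.332 in the CD95ko-labelled libraries. The ratio of Cxcl1 to Cxcl16 overlapped between the groups, at 1.89 and 3.41 in the controls and 1.99 and 1.64 in the CD95ko-labelled libraries. The share of Cxcl16 in the summed TPM of the 9 genes stayed between 16.04% and 19.5% in the 4 libraries.

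The controls differed from each other in opposite directions for these genes. Cxcl1, Cxcl5 and Cxcl16 were higher in control 2 than in control 1, by 1.27, 0.62 and 0.42 on the log2(TPM + 1) scale. Cxcl2, Cxcl3, Cxcl9, Cxcl10 and Cxcl11 were lower in control 2. Between the CD95ko-labelled libraries, Cxcl1, Cxcl3, Cxcl5, Cxcl10 and Cxcl16 were lower in CD95ko 2 than in CD95ko 1, with differences from -0.14 (Cxcl5) to -4.63 (Cxcl10), and the other members were at 0 in both.

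The calls depended on which library was left out. Without the library labelled CD95ko 1, 4 of the 6 chemokines passed an adjusted p of 0.05 in limma and were lower, against 4.86% of all genes tested. Cxcl11 is among the 4, and its direction was fixed by the filter, which it passed through the controls alone. The adjusted p was then 0.00226 for Cxcl1, 3.85e-05 for Cxcl10, 0.037 for Cxcl11 and 0.00549 for Cxcl16. In that fit the remaining clone is assumed to vary like the controls, whose spread was the only one measured. None of the 6 passed when any other library was left out, and the adjusted p was between 0.0558 and 0.998.

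The genome places 7 of the members on chromosome 5, in a pair of clusters (GENCODE M21, GRCm38). Cxcl5 (chr5:90759360-90761624), Cxcl3 (chr5:90786103-90789600), Cxcl1 (chr5:90891241-90893115) and Cxcl2 (chr5:90903871-90905938) lie on the forward strand. Within this span of 146.6 kb RefSeq also lists Ppbp and Pf4, platelet chemokine genes, and Cxcl15, a lung chemokine gene. All 3 were far below Cxcl5 and Cxcl1: Ppbp was at most 3.38 TPM, Pf4 at 2.85 TPM in control 2 and 0 elsewhere, and Cxcl15 at 0 in all libraries. Cxcl1 and Cxcl2, which are neighbours in this cluster, were listed at 730 and 7.31 TPM in control 1. Cxcl9 (chr5:92321347-92328079), Cxcl10 (chr5:92346638-92348889) and Cxcl11 (chr5:92359544-92365485) lie on the reverse strand, within 42.0 kb by RefSeq. Art3, an ADP-ribosyltransferase family gene on the forward strand, spans Cxcl10 and Cxcl11 (chr5:92331827-92414628), shares 133 exonic bases with Cxcl10 in GENCODE M21, and was listed at 0 in all libraries. The pseudogene Gm2673, also on the forward strand, shares 1582 exonic bases with Cxcl11 in GENCODE M21. By RefSeq, Cxcl11 ends at chr5:92363296, before Gm2673 begins (chr5:92363904). Gm2673 is not among the genes listed in the libraries. Cxcl12 (chr6:117168535-117181367, forward) and Cxcl16 (chr11:70453983-70459984, reverse) lie apart from these clusters. Zmynd15, on the forward strand, shares 552 of the 3021 exonic bases of Cxcl16 and was listed at 2.53 to 6.19 TPM. Whether the counting used strand, and which gene models it used, is not given in the sources used here. Reads in these shared stretches therefore cannot be assigned to one gene with certainty.

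**Figure D3:**
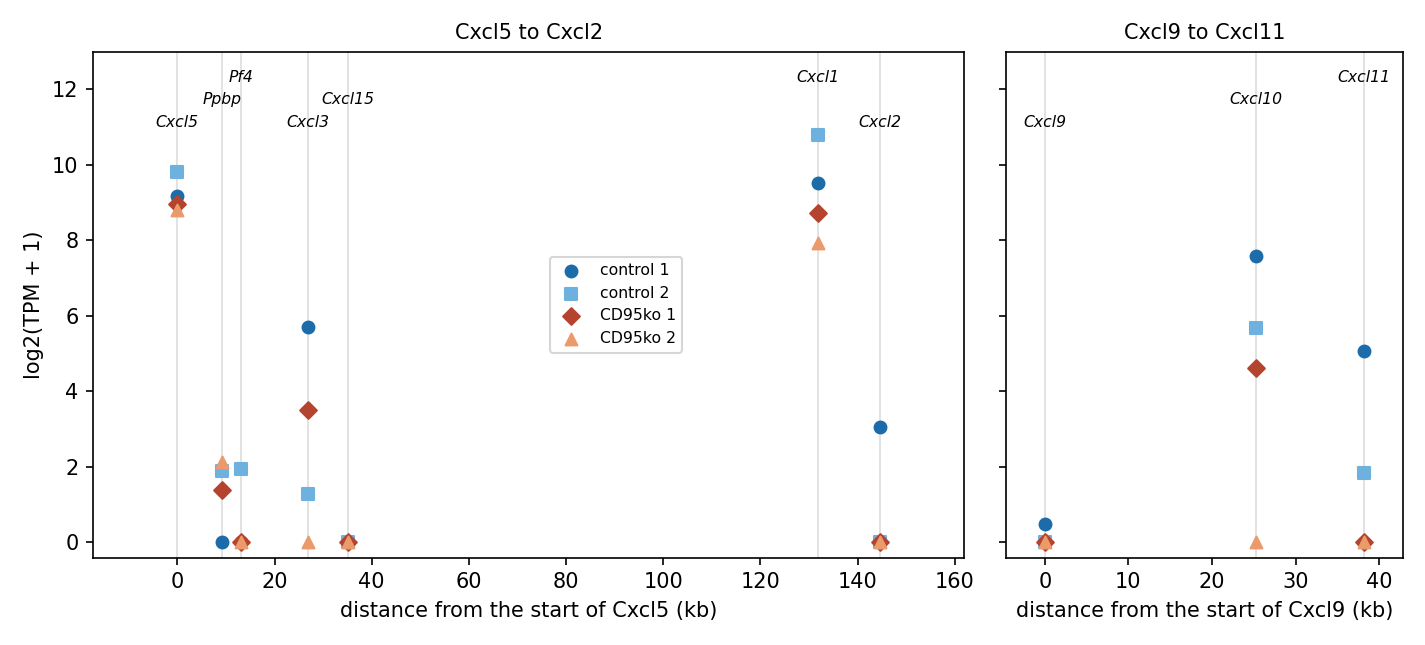
Level of each gene, as log2(TPM + 1), against the distance of its RefSeq start from the first gene of its chemokine cluster in kb, with 1 point per library. Cxcl5 and Cxcl1 lie high in every library, with Ppbp, Pf4, Cxcl3, Cxcl15 and Cxcl2 far lower.

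Most receptor genes were listed at 0 in the tumour cells. Of 8 CXC receptor genes, Cxcr1, Cxcr2, Cxcr4, Cxcr5, Cxcr6 and Ackr1 were at 0 in all libraries. Ackr3, an atypical receptor that scavenges CXCL12 and CXCL11, was listed at 36.8 and 54.9 TPM in the controls, against 17.8 and 31.7 TPM in the CD95ko-labelled libraries (log2 fold change -0.89 ± 0.45 SE, limma adjusted p = 0.386). The groups did not overlap. Cxcr3, named after its values were seen, ranged from 0 to 14.4 TPM with overlapping groups (limma adjusted p = 0.415). Of the 6 other CXC chemokine genes, Cxcl13, Cxcl14, Cxcl15 and Cxcl17 were at 0 throughout, and only Ppbp was tested (log2 fold change 0.82 ± 0.81 SE, limma adjusted p = 0.668).

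Among 5 proteases that cleave CXC chemokines, Dpp4 and Mmp8 were at 0 in all libraries. Of the 3 tested, 0 passed in limma, against 0.0537% of all genes tested. At an unadjusted p under 0.05 there were also 0, against 5.68% lower and 9.25% higher among all genes tested. Adam10, a releasing protease of CXCL16, was listed at 28.9 and 18.3 TPM in the controls, against 41.7 and 42.5 TPM in the CD95ko-labelled libraries. These groups did not overlap, in the direction opposite to Cxcl16 (log2 fold change 0.84 ± 0.41 SE, limma adjusted p = 0.379). Such higher values without overlap were found for 29.2% of all genes tested, and Adam10 was named among genes without overlap. Adam17, named after its values were seen, overlapped between groups at 22.6 to 40.6 TPM. Mmp9, a gelatinase that trims several CXC chemokines, was 802 TPM in the library labelled CD95ko 2 against 16.1 to 66.6 TPM in the other libraries (limma adjusted p = 0.377). Without the library labelled CD95ko 1 the log2 fold change of Mmp9 was 4.56, and without the library labelled CD95ko 2 it was 0.26.

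The NF-κB list had 14 members, all tested, and none passed an adjusted p of 0.05 in limma. At an unadjusted p under 0.05, 6 were lower and 0 higher, against 5.68% and 9.25% of all genes tested. For 8 the groups did not overlap with lower values in the CD95ko-labelled libraries, against 18.3%. For 1, the kinase gene Ikbkb (named after its values were seen), they did not overlap in the other direction, against 29.2%. The median log2 fold change was -1.17, beside 0.13 over all genes. Relb, a subunit of the non-canonical pathway, was listed at 122 and 118 TPM in the controls, against 29.4 and 21.6 TPM in the CD95ko-labelled libraries. Its log2 fold change was -2.20 ± 0.36 SE (limma adjusted p = 0.0676), and it passed under robust eBayes (adjusted p = 0.0331). The gap between the groups was many times the spread within either.

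Nfkbia, which encodes the inhibitor IκBα and is itself an NF-κB target, was listed at 435 and 535 TPM in the controls, against 112 and 251 TPM in the CD95ko-labelled libraries (log2 fold change -1.52 ± 0.40 SE, limma adjusted p = 0.16). Nfkbib, encoding IκBβ, was 102 and 98.4 TPM against 28.4 and 38.8 TPM (-1.56 ± 0.35 SE, adjusted p = 0.137). Bcl3, a nuclear IκB family member, was 25.0 and 19.2 TPM against 1.79 and 9.34 TPM (-2.09 ± 0.67 SE, adjusted p = 0.223). For Nfkbia, named for its mean TPM, both clones lay below both controls, as in 18.3% of all genes tested. Nfkbib and Bcl3 were also lower in both clones, but they were named among genes without overlap, so their lack of overlap was set by that choice. Without the library labelled CD95ko 2 the log2 fold change was -2.10 for Nfkbia, -1.78 for Nfkbib, -3.04 for Bcl3 and -1.99 for Relb. Without the library labelled CD95ko 1 it was -0.94, -1.35, -1.15 and -2.42 in that order. Rela, the p65 subunit, named after its values were seen, was 159 and 147 TPM against 85.9 and 52.9 TPM (-1.17 ± 0.35 SE, adjusted p = 0.197). Whether the levels of these genes bear on those of the chemokines was not tested.

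**Figure D4:**
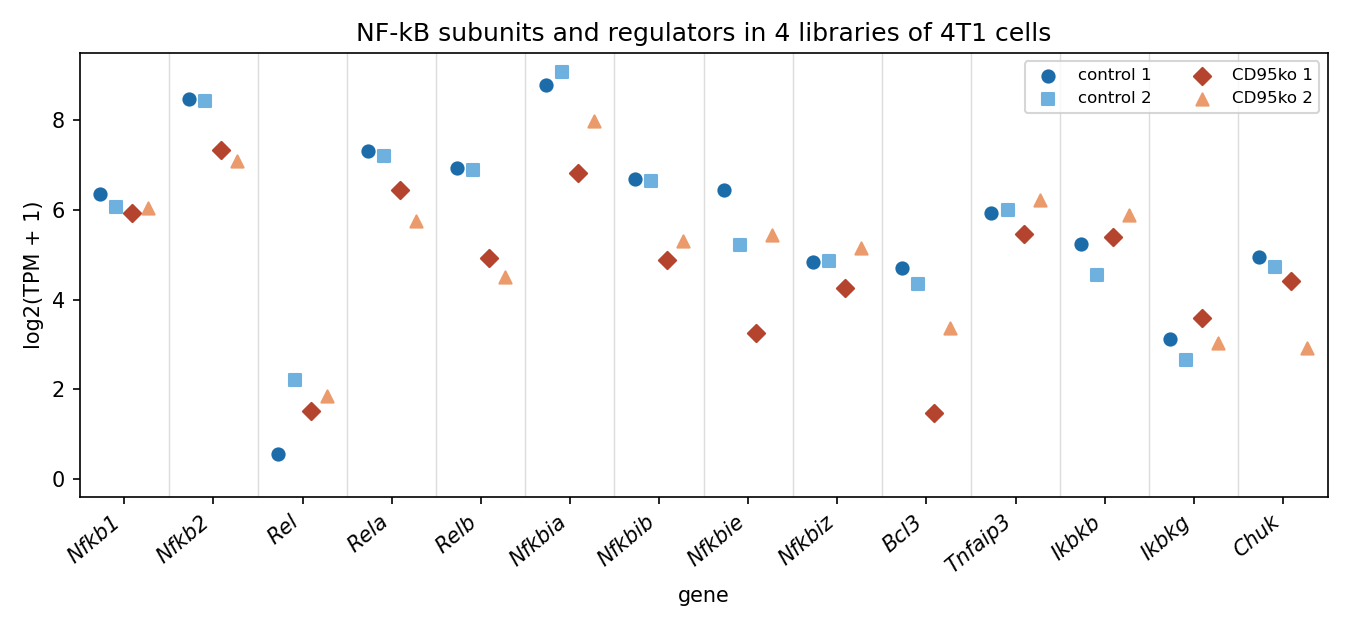
Level of the 14 NF-κB subunits and regulators, as log2(TPM + 1), in the 4 libraries; each point is 1 library. The libraries labelled CD95ko lie below both controls for 8 genes, among them Relb, Nfkbia, Nfkbib and Bcl3, and above both for Ikbkb.

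Of 11 receptors and adaptors upstream of NF-κB, none passed in limma, against 0.0537% of all genes tested. An unadjusted p under 0.05 was reached by 0, against 5.68% lower and 9.25% higher among all genes tested. Groups did not overlap for 5 with higher and 1 with lower values in the CD95ko-labelled libraries, against 29.2% and 18.3% of all genes tested. The median log2 fold change was 0.31, beside 0.13 over all genes. Irak1, a kinase gene with the highest mean TPM of the list, overlapped between groups at 55.2 to 79.5 TPM. Tlr4, the receptor for lipopolysaccharide, was 5.23 and 2.02 TPM against 9.77 and 10.2 TPM (1.34 ± 0.60 SE, adjusted p = 0.342). Il1rap, the accessory chain of the interleukin-1 receptor, was 4.11 and 6.05 TPM against 11.3 and 7.46 TPM (0.77 ± 0.56 SE, adjusted p = 0.555). Myd88, the adaptor shared by Toll-like and interleukin-1 receptors, was 51.8 and 41.2 TPM against 28.3 and 21.5 TPM (-0.88 ± 0.40 SE, adjusted p = 0.344). Tlr4, Il1rap and Myd88 are among the 6 without overlap.

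The interferon genes separated the controls from each other. All 16 interferon-stimulated genes were more than 2-fold lower in control 2 than in control 1 on the log2(TPM + 1) scale, against 12.6% of all genes tested, with a median difference of -2.36. Cxcl3, Cxcl10 and Cxcl11 were the tested chemokines that did the same. Against control 1 the list's median was -1.62 in the library labelled CD95ko 1 and -1.53 in the library labelled CD95ko 2, and against control 2 it was 0.85 and 0.97. The direction of the list's median thus depended on the control. Cxcl10 lay lower in all 4 pairs, as did 1 of the 16 list genes (Isg15) and 18.3% of all genes tested. The difference between Cxcl10 and the list was not tested.

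Between the groups 0 of the 16 passed in limma, and 2 had an unadjusted p under 0.05, both lower, against 5.68% of all genes tested. Isg15, a ubiquitin-like modifier, was listed at 600 and 212 TPM in the controls, against 156 and 62.3 TPM in the CD95ko-labelled libraries, with no overlap (-1.84 ± 0.56 SE, adjusted p = 0.197). With 1 library left out the log2 fold change of Isg15 ranged from -2.59 to -1.09. Bst2, which encodes tetherin, overlapped between groups at 155.9 to 415.4 TPM (-0.02 ± 0.44 SE, adjusted p = 0.988). The ratio of Cxcl10 to Isg15 TPM was 0.321 and 0.235 in the controls and 0.152 and 0 in the CD95ko-labelled libraries.

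**Figure D5:**
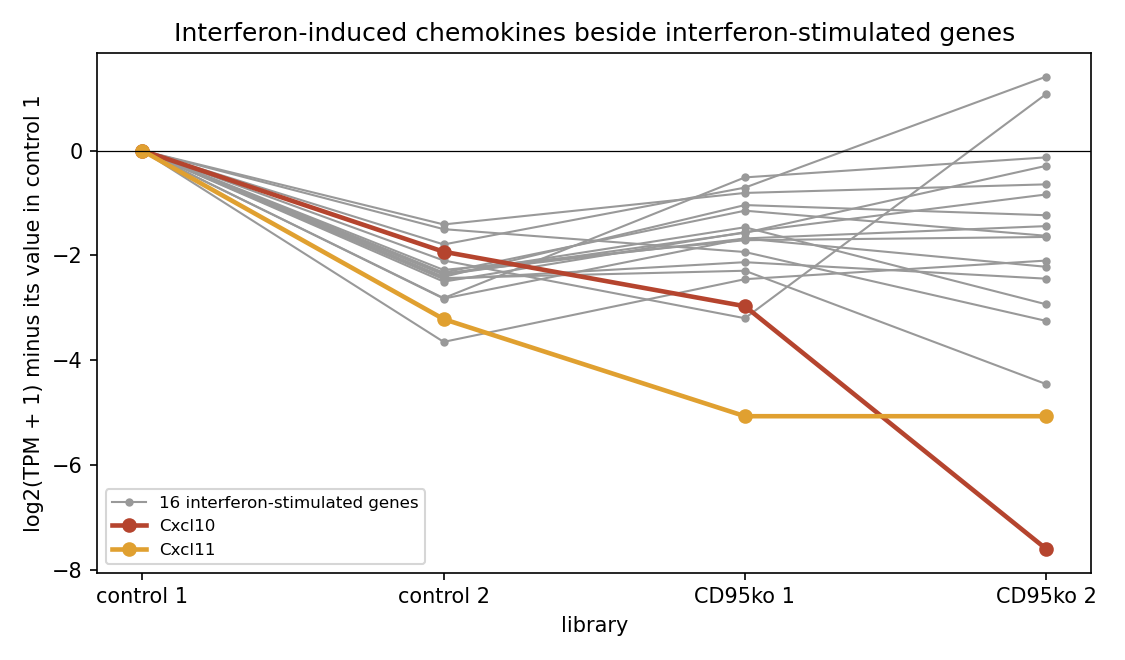
Level of Cxcl10, Cxcl11 and 16 interferon-stimulated genes in each library, as the difference in log2(TPM + 1) from control 1; lines join the values of 1 gene, and the libraries have no order. All genes drawn lie below 0 in control 2, and Cxcl10 and Cxcl11 lie below the interferon-stimulated genes in the library labelled CD95ko 2, where both chemokines are listed at 0.

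Of 11 interferon receptors and transcription factors, none passed in limma, and 2 had an unadjusted p under 0.05, both higher, against 9.25% of all genes tested. Tyk2, a kinase of the type I interferon receptor, was 10.3 and 6.7 TPM in the controls against 26.2 and 31.1 TPM (1.67 ± 0.47 SE, adjusted p = 0.182). Jak2, a kinase of the interferon-γ receptor, was 23.4 and 12.7 TPM against 40.9 and 72.4 TPM (1.60 ± 0.47 SE, adjusted p = 0.191). With 1 library left out the log2 fold change of Jak2 ranged from 1.18 to 2.02. Ifngr2, a chain of that receptor, was 49.2 and 53.9 TPM against 32.9 and 41.0 TPM (-0.48 ± 0.37 SE, adjusted p = 0.576). Groups did not overlap for 3 with higher and 1 with lower values, against 29.2% and 18.3% of all genes tested. Tyk2, Jak2 and Ifngr2 are among the list genes without overlap. Irf1, a transcription factor for CXCR3 ligand genes, was 259 and 84.8 TPM in the controls, against 101 and 253 TPM in the CD95ko-labelled libraries, with overlap (limma adjusted p = 0.953). In the library labelled CD95ko 2, Irf1 was near its level in control 1, and Cxcl10 was listed at 0. Whether the level of Irf1 bears on that of Cxcl10 was not tested.

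Regulators of chemokine mRNA decay showed 0 of 6 past the threshold, against 0.0537% of all genes tested. At an unadjusted p under 0.05 there were 0, against 5.68% lower and 9.25% higher among all genes tested. Their median log2 fold change was 0.12, beside 0.13 over all genes. Zfp36l2, an RNA-binding protein that promotes decay of AU-rich messages, was at 128 to 161 TPM with overlapping groups. Elavl1, which stabilizes such messages, was 33.8 and 25.0 TPM against 23.8 and 19.8 TPM (-0.41 ± 0.42 SE, limma adjusted p = 0.684). Khsrp, a decay factor, was 80.4 and 42.4 TPM against 83.7 and 134.9 TPM (0.85 ± 0.42 SE, limma adjusted p = 0.382). Groups did not overlap for 1 of the 6 with lower values (Elavl1) and 1 with higher values (Khsrp). Of all genes tested, 18.3% and 29.2% did so.

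The genes whose profiles over the 4 libraries lay nearest were named by the root mean square distance between centred log2(TPM + 1) values. For Cxcl5 these were Fdps (0.0112), an enzyme of isoprenoid synthesis, and Ndufc2 (0.0416), a respiratory complex I subunit. For Cxcl16 they were Dtymk (0.0603), thymidylate kinase, and the non-coding Gas5 (0.0638). Chka (0.201), choline kinase, and LOC100503496 (0.161) lay nearest to Cxcl1. Chka was listed at 303 and 516 TPM in the controls, against 153 and 98.7 TPM in the CD95ko-labelled libraries. Cxcl3 lay nearest to Ifit3b (0.291), an interferon-stimulated gene, and Rab26os (0.536). The nearest profiles to Cxcl10 were Zc3h8 (0.919) and Hist1h4d (0.931), and to Cxcl11 1700020L24Rik (0.645) and Casp4 (0.786), an inflammatory caspase. The distance is not scaled to a gene's range over the libraries, which was wide for Cxcl10 and Cxcl11, so distances of different members are not comparable. These are likenesses over 4 values among 11167 genes and carry no test.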

How the data were processed

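Poly(A)-selected RNA of 4 libraries of 4T1 cells was sequenced, and each deposited table pairs a gene symbol with a TPM value, per the file headers. TPM scales reads to transcript length and library size, so it keeps no read number, and depth and detection limits are unknown. The submitters' processing notes name STAR 2.6.0, RSEM 1.3.0 and mm10 without roles, and the annotation is not given in the sources used here.

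The titles gave the groups. The 11167 genes that reached 1 TPM in 2 or more libraries were tested, log2(TPM + 1) was compared with limma 3.58.1 in R 4.3.3 (two-sided, eBayes with the variance trend on), and p-values were Benjamini-Hochberg adjusted over all genes tested, with a threshold of 0.05. The fit was tested on simulated data. No list test was run. Fold changes on this scale understate those of weakly expressed genes.

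The members and the gene lists were chosen with earlier results of these data known. Named genes were the 9 chemokines, Fas, and the RefSeq genes lying between members. From each pathway list, the member with the highest mean TPM was named, with up to 3 tested members of largest absolute log2 fold change among those whose groups do not overlap. For each tested chemokine the 2 tested genes with the nearest centred profile were also named. Genes named outside the rule are marked in the text, apart from list members named as listed at 0, marker genes, and genes that overlap a member. Members left out of the interferon regulator and leukocyte lists are not reported here. Alternatives were a pseudocount of 0.1, no filter (all genes above 0 in any library), eBayes without trend, robust eBayes, the replicate number as a block, quantile normalization, and leaving out each library. Promoter windows and gene neighbours are RefSeq (GRCm38.p6), and gene positions and transcripts are GENCODE M21 (GRCm38, the assembly of mm10).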

Additional observations from a re-analysis of the deposited data

How the results depend on the processing

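In limma 6 genes passed an adjusted p of 0.05 as reported, and that count was 52 under robust eBayes, 2 with the replicate block, and 0 in each of 4 settings (quantile normalization, no trend in eBayes, a pseudocount of 0.1, no filter). Unadjusted p-values under 0.05 were reached by 1706, 1685, 1862, 1531, 1553 and 1636 genes in that order, and by 1667 as reported. Leaving out 1 library at a time gave 0 to 1034 genes, 0 without either control, 194 without the library labelled CD95ko 2 and 1034 without the library labelled CD95ko 1. In those fits the lone library of a group is assumed to vary like the others. The cause of these moves was not tested.

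None of the 6 tested chemokines passed the threshold, and none changed direction, under the 6 settings that used all 4 libraries. With 1 library left out the log2 fold change ranged from -2.46 to -1.19 for Cxcl1, from -3.95 to 0.47 for Cxcl3, from -0.92 to -0.30 for Cxcl5, from -6.63 to -2.00 for Cxcl10, from -5.07 to -1.85 for Cxcl11 and from -1.58 to -1.08 for Cxcl16. With all 4 libraries the pseudocount of 0.1 moved Cxcl3 to -3.12, Cxcl10 to -5.99 and Cxcl11 to -6.55. The number of tested members whose groups did not overlap stayed at 5 after quantile scaling. That scaling took the median over all genes tested from 0.13 to 0.002 (log2).

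Ranges with 1 library left out also crossed 0 for Fas (-1.42 to 0.16), Ppbp (-0.12 to 1.76), Irak1 (-0.26 to 0.26), Irf1 (-0.69 to 0.91), Bst2 (-0.73 to 0.68) and Zfp36l2 (-0.070 to 0.26). Of 126 values of the named list genes with all 4 libraries, 125 kept direction and side of the threshold, and Relb passed it under robust eBayes. The numbers in the titles name different lines or clones, and nothing states that they pair libraries. Across genes, libraries with the same number deviated from their groups with a correlation of -0.081. A correlation over all genes tested cannot show whether single genes deviate together. With the replicate block no chemokine passed, with adjusted p-values from 0.118 (Cxcl10) to 0.443 (Cxcl5). Depth is unknown from TPM, so a 0 has no detection limit beside it.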
